A study of Rattus norvegicus with 6 samples.

Results

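The genes described here build the chromosome structures of meiotic prophase. 10 genes were listed (Sycp1, Sycp2, Sycp3, Dmc1, Stag3, Smc1b, Rec8, Spo11, Stra8 and Hormad1), chosen by name, and an array probe was matched to 8 of them, of 15154 genes with a probe in all. Each of the 8 had exactly 1 probe, and no probe was matched to Spo11 or Stra8. The ovaries came from Wistar rat pups that had received lipopolysaccharide (LPS) from Salmonella enterica at 0.05 mg/kg, or saline in the same volume, intraperitoneally on postnatal days 3 and 5. Whole ovaries were collected on postnatal day 7, so every pup in both groups was of the same age. Labelled cRNA amplified from total RNA was hybridised to single-colour Agilent rat arrays, 3 for LPS and 3 for saline. Per the study's methods the replicates of a group were made from ovarian tissue of a few animals, from fewer litters than arrays. Whole litters were randomly allocated to LPS or saline, so effects of treatment and of litter cannot be told apart. Which animals or litters stood behind each array was not given, so the p-values measure the spread between these arrays only. LPS 2 and LPS 3 stood in slide row 1, and LPS 1 and all saline arrays in slide row 2. Treatment and slide row were thus partly confounded. LPS is a cell wall component of Gram-negative bacteria that sets off innate immune signalling.

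In meiotic prophase, homologous chromosomes pair, exchange DNA and are held along their length by the synaptonemal complex. Each chromosome first folds into loops along an axis made of meiotic cohesin and of axis proteins, the transverse filaments then join both axes, and DNA breaks made on purpose are repaired with the homologue as template. In female rodents the germ cells enter this stage before birth, and around birth most of them leave pachytene for the long diplotene arrest in which the oocyte waits inside its primordial follicle. In whole ovary RNA, fewer cells of a type and less RNA per cell cannot be told apart.

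Values are log2 of the background-subtracted probe signal minus the 75th percentile of the same array, so 0 is a bright probe of that array and the scale has no meaning across probes. A probe counted as well above background on an array where every spot of it was so marked by the scanner software. Fitted differences are LPS minus saline on the log2 scale, from limma over all 30367 probes. On these fitted values 2 of the 8 members, Hormad1 and Sycp3, met the criterion of a 2-fold or wider difference with an unadjusted p under 0.05, both higher in LPS, where 0.613% of all probes met this criterion upwards and 1.08% downwards. Neither value is a measured 2-fold change. No saline array showed Hormad1 well above background, which leaves a bound of 1.60-fold between the group means. No array of either group showed Sycp3 well above background. No member and none of all probes passed an adjusted p under 0.05 (0%). The lowest adjusted p over the whole array was 0.271, although 4 members and 5018 probes had an unadjusted p under 0.05. An ordinary equal-variance test run probe by probe, without limma's shared estimate of the spread, also left 0 members and 0 probes past the adjusted threshold, with 3 members and 3954 probes under an unadjusted p of 0.05.

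The members differed widely in detection. Smc1b and Stag3 were well above background on all 6 arrays. Sycp2 was so on saline 3, LPS 2 and LPS 3, and Hormad1 on the 3 LPS arrays and on no saline array. Over the whole array, 67.2% to 71.2% of probes were so on the LPS arrays, against 59.8% to 64.9% on the saline arrays. For Sycp3, Sycp1, Dmc1 and Rec8 no array passed that mark, so their signals are only upper limits. Had 1 bright spot been enough, Sycp2 would have counted on 5 arrays, Hormad1 would have gained 1 saline array and Sycp3 would have counted on 1 LPS array.

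**Figure D1:**
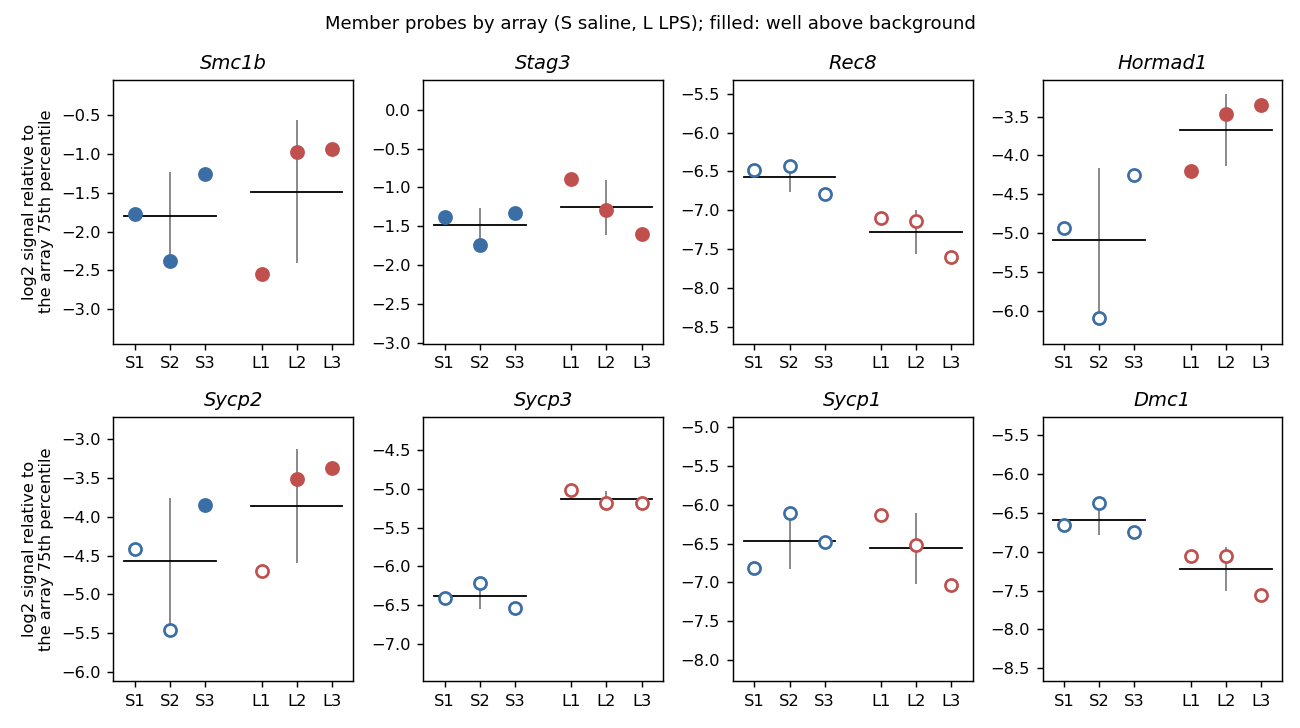
Log2 signal of each member probe after subtracting the array's 75th percentile, for saline (S1 to S3, blue) and LPS (L1 to L3, red), with the group mean (line) and SD (grey bar, n = 3). Filled points are well above background. Smc1b and Stag3 are filled on all arrays and their groups overlap, Hormad1 is filled only on LPS arrays, and Sycp3 separates the groups with no filled point.

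The promoters of the 4 members that reached background on any array, and of Sycp3, are shown because they are the member promoters in which the letters searched for below were found. Sequences are the 250 bases before the annotated start, 5′ to 3′ on the gene's strand, from RefSeq on build GRCr8, which held all 10 members. Capitals mark 2 motifs searched on both strands: GCGGGAA, whose other strand reads TTCCCGC, and the E-box CACGTG, which is its own reverse complement. The first is of the kind bound by E2F6 and the second by MGA with MAX, factors of a Polycomb complex known to keep germline genes silent in somatic cells.

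Hormad1, chr2:185805422-185805671, plus strand: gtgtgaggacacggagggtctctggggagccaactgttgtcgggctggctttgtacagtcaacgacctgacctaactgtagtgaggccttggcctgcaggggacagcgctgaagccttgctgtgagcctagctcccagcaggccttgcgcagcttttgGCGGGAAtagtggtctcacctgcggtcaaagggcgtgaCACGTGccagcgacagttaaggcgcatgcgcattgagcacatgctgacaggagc
Sycp2, chr3:185876493-185876742, minus strand: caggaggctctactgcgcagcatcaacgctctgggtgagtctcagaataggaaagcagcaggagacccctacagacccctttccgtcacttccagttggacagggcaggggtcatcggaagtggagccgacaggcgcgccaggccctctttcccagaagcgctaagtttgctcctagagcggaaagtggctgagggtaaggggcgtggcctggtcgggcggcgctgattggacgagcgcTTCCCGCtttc
Stag3, chr12:22398158-22398407, plus strand: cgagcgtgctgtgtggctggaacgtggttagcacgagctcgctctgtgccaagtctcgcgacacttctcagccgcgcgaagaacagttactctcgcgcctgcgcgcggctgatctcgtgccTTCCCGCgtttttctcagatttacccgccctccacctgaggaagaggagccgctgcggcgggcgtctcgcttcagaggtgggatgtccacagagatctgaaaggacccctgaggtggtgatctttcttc
Smc1b, chr7:118122649-118122898, minus strand: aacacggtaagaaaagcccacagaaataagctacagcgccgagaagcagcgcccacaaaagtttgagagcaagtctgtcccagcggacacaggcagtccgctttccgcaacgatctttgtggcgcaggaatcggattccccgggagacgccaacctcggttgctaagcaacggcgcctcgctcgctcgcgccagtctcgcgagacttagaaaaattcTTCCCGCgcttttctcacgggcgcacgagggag
Sycp3, chr7:24761226-24761475, plus strand: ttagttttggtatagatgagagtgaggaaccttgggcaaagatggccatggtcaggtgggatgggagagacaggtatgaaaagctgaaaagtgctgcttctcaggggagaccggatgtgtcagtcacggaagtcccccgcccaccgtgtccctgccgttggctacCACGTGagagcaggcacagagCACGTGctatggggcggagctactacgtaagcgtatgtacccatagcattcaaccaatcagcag

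GCGGGAA was found in 4 of the 10 member promoters, against 3.36% of the 33469 promoters of the same length in the table. Those 4 belong to Hormad1, Sycp2, Stag3 and Smc1b, the members well above background on any array, where the match ends 86, 5, 123 and 27 bases before the start. CACGTG was found in 2 of the 10, against 5.59% of all promoters. It stands once in Hormad1, ending 49 bases before the start, and 2 times in Sycp3, ending 80 and 59 bases before it. No array showed Sycp3 well above background. The promoters of Sycp1, Dmc1, Rec8, Spo11 and Stra8 held neither set of letters in this window. The motifs were picked with the array results known, so any match between motif and detection is a description only and was not tested. The 2 do not overlap each other in any member, and a match is a stretch of letters and not a measured binding site.

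Smc1b and Stag3 encode subunits of meiotic cohesin, the ring that holds sister chromatids together and gives the axis its base. The Smc1b probe read -1.77, -2.38 and -1.25 on saline 1, 2 and 3, and -2.55, -0.97 and -0.93 on LPS 1, 2 and 3. The 2 highest arrays and the lowest were all LPS arrays, and the groups overlapped. The fitted difference was 0.31 ± 0.51 (SE, n = 3 per group), with a 95% interval from -0.90 to 1.52 and an adjusted p of 0.907 in limma. LPS 1 carried much of that spread, since without it the difference was 0.85 (adjusted p = 0.217 in limma).

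The Stag3 probe varied less between arrays than that of Smc1b. It read -1.38, -1.74 and -1.33 in saline and -0.89, -1.29 and -1.60 in LPS. The groups overlapped, and the order of the LPS arrays was the reverse of that for Smc1b, with LPS 1 highest. The difference of 0.23 ± 0.24 had a 95% interval from -0.34 to 0.79 (adjusted p = 0.806 in limma), so 2-fold changes in either direction lie outside the interval on this scale. Without LPS 1 it was 0.04.

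The third cohesin member, Rec8, is the subunit that closes the meiotic ring and is cut when chromosomes part. Its probe read -6.48, -6.43 and -6.79 in saline against -7.10, -7.14 and -7.60 in LPS. All LPS arrays lay below all saline arrays, but none of the 6 was well above background. A fitted difference of such a probe compares readings at the dim end of the arrays and is not a fold change of the transcript. Probes that were dim throughout, never well above background, had a median fitted difference of -0.57, against 0.02 for those well above background on all 6, and the fitted difference of Rec8 was -0.71.

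Hormad1, Sycp2 and Sycp3 belong to the chromosome axis. HORMAD1 marks axes that have not yet synapsed and promotes DNA break formation, and SYCP2 and SYCP3 form the lateral elements to which chromatin loops attach. The Hormad1 probe read -4.93, -6.10 and -4.25 on saline 1, 2 and 3. It read -4.20, -3.47 and -3.35 on LPS 1, 2 and 3. The lowest LPS array and the highest saline array were nearly level, 5.02% of all probes had LPS arrays wholly above saline arrays as Hormad1 did, and saline 2 stood far below the rest. Since no saline array was well above background, the ratio of the group means is given as a bound. Each saline array was counted at the lowest signal well above background there or at its own, whichever was higher. So counted, the LPS mean was 1.60-fold higher (1.43 to 1.92 with any 1 array left out). The bound holds for the means on this scale and leaves out the spread between arrays. The lowest signal is that of any probe on the array and not a detection limit of this probe. The fitted difference was 1.42 ± 0.49 with a 95% interval from 0.25 to 2.59 (adjusted p = 0.271 in limma).

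That difference moved with the setting. It was 0.92 without saline 2, below 2-fold. Without LPS 2 or without LPS 3 it was 1.32 and 1.26, and there, as with the equal-variance test, it missed the p part of the 2-fold criterion. With slide row as a term, which sets LPS 1 alone against the saline arrays of its row, it was 0.89 (adjusted p = 0.583 in limma). Without background subtraction it was 0.16. Under normexp correction, which models the background and here added 50 units to each signal, it was 0.35. By construction, both settings shrink log2 differences of probes as dim as this one. The Hormad1 difference was positive under every alternative run.

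Sycp2 read -4.41, -5.46 and -3.85 in saline and -4.70, -3.52 and -3.37 in LPS. The groups overlapped through LPS 1, and saline 2 was again the lowest array, as for Hormad1. The difference was 0.71 ± 0.51, with a 95% interval from -0.51 to 1.94 (adjusted p = 0.628 in limma). It was 1.13 without LPS 1, where it met the 2-fold criterion, and 0.27 without saline 2. With slide row as a term, again LPS 1 alone against saline, it was -0.13.

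Sycp3 gave the smallest unadjusted p of the members on a probe that never reached background. The probe read -6.40, -6.21 and -6.53 in saline and -5.01, -5.18 and -5.18 in LPS. The groups lay far apart and each was tight, with SDs of 0.16 and 0.10. The fitted difference was 1.26 ± 0.17 (95% interval 0.85 to 1.66, adjusted p = 0.271 in limma). In scanner units before scaling, its spots read 24.0 to 67.3 in saline and 88.8 to 162.5 in LPS, and 1 spot of LPS 1 was marked as well above background.

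Of the 8023 probes that no array showed well above background, 1.01% had LPS wholly above saline and 0.137% met the 2-fold criterion upwards, while 55.2% had LPS wholly below saline. Sycp3 thus lay opposite to the usual direction of such dim probes. Its fitted difference was 1.18 to 1.34 with any 1 array left out. It was 0.03 under normexp correction and -0.03 without background subtraction, settings that by construction shrink log2 differences of dim probes. The size and sign of the difference thus changed with the handling of background, and no fold is given for the transcript.

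Sycp1 encodes the transverse filament that zips both axes together. Its probe read -6.81, -6.10 and -6.48 in saline against -6.13, -6.52 and -7.03 in LPS, with overlapping groups and no array well above background. Dmc1 encodes the meiosis-specific recombinase that lays the broken strand onto the homologue. Its probe read -6.65, -6.37 and -6.74 in saline and -7.06, -7.06 and -7.56 in LPS. Dmc1 and Rec8 were the 2 members whose LPS arrays lay wholly below the saline arrays, where 18.4% of all probes, and most of the dim ones as given above, did the same. In all, 4 of the 8 members had groups that did not overlap in either direction, as did 23.4% of all probes, and an exact two-sided permutation test on 3 against 3 arrays cannot go below p = 0.1.

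**Figure D2:**
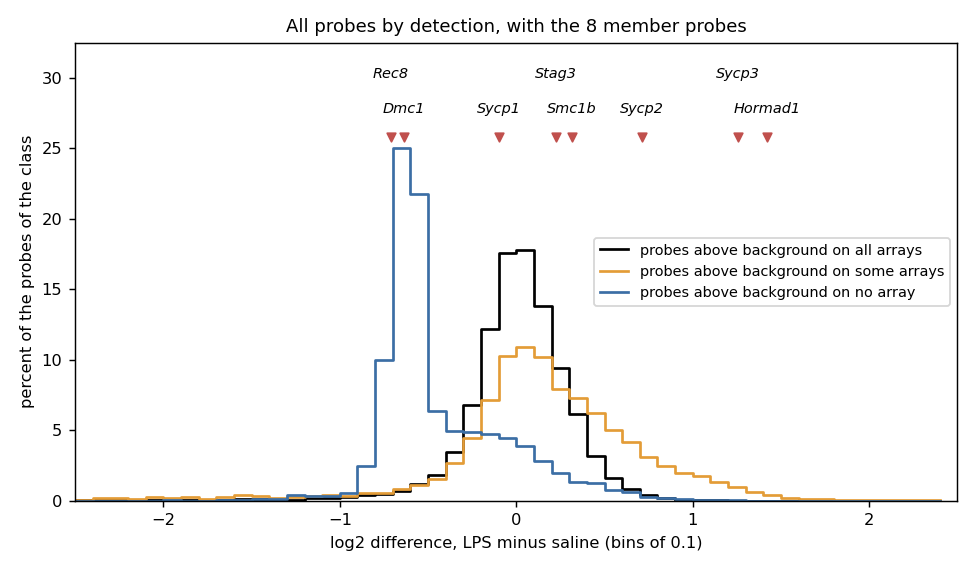
Fitted log2 difference (LPS minus saline, bins of 0.1) of all probes, as percent of the probes in each detection class: well above background on all arrays (black), on some (orange) or on none (blue). Red marks give the 8 members. Dmc1 and Rec8 sit in the peak of the undetected probes, whose median is -0.57, while Sycp3, also undetected, sits at 1.26.

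Over the 8 members the median fitted difference was 0.27, against -0.04 over all probes, and 5 were positive and 3 negative. Of all 30367 probes 13602 were positive and 16765 negative. Among the 17585 well above background on all arrays 9429 were positive, as were Smc1b and Stag3, the members of that class. 4 of the 8 members entered the median with signals never well above background. The median itself lies between the values of Stag3 and Smc1b, so it would be the same with Hormad1 at its bound. The summed linear signal of the members, in units of the array's 75th percentile, ran from 0.58 to 0.98 in saline and from 0.86 to 1.15 in LPS. Stag3 and Smc1b, the brightest member probes, made up most of it on every array. As signals are not comparable across probes, the sum is a description only.

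The array-to-array pattern of Smc1b was shared by the oocyte markers and by most granulosa cell markers. Smc1b and Sycp2 were highest on saline 3, LPS 2 and LPS 3. Of 17 oocyte and germ cell markers well above background on all 6 arrays, 15 (88.2%) had the same 3 highest arrays, against 11.5% of all 17585 such probes. The pattern was not particular to germ cells. The granulosa cell markers Amh, Inha, Inhba, Fshr, Nr5a2, Hsd17b1, Gata4 and Amhr2 had the same 3 highest arrays, and Wt1, Kitlg and Wnt4 did not. Zp3, a coat protein of the oocyte, read 4.02, 3.76 and 4.54 in saline and 3.48, 4.97 and 4.63 in LPS. Gdf9, an oocyte growth factor, read 0.90, 1.12 and 1.99 in saline and 0.42, 2.55 and 2.33 in LPS. For both, and for Padi6, LPS 1 was the lowest of the 6 arrays, as it was for Smc1b. For Zp2 and Lhx8 saline 2 was the lowest, at 1.33 and 0.61, against 1.62 and 0.82 on LPS 1. The lowest array of the remaining markers was likewise divided, mostly between LPS 1 and saline 2. Padi6, Zp2 and Lhx8, the other oocyte genes with the highest signal, had fitted differences of 0.12, 0.60 and 0.48, and none of the 19 oocyte markers with a probe met the 2-fold criterion.

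Set against the mean of those 17 markers on the same array, Smc1b drew together. It then read -1.30, -1.68 and -1.35 in saline and -1.83, -1.49 and -1.40 in LPS, and its SD in the LPS group fell from 0.92 to 0.23. The difference was -0.13 with a 95% interval from -1.46 to 1.21, whose width does not come from the spread of Smc1b itself. Sycp2 likewise lay between -4.77 and -3.83 on all arrays, with a difference of 0.27. Stag3 spread out instead, from -2.06 on LPS 3 to -0.16 on LPS 1, and its difference turned to -0.21.

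Hormad1 kept its groups apart on that scale. It read -4.47, -5.40 and -4.35 in saline and -3.48, -3.99 and -3.81 in LPS, a difference of 0.98 with a 95% interval from -0.35 to 2.31 (adjusted p = 0.809 in limma). The oocyte marker mean itself was 0.44 higher in LPS, and the median of all probes moved to -0.48, so differences on this scale are relative to the oocyte signal and not to the whole array. The standard error was 0.68 for all members there, wider than on the main scale. Limma gave every member the same spread, so intervals and p-values on this scale do not reflect a gene's own spread.

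**Figure D3:**
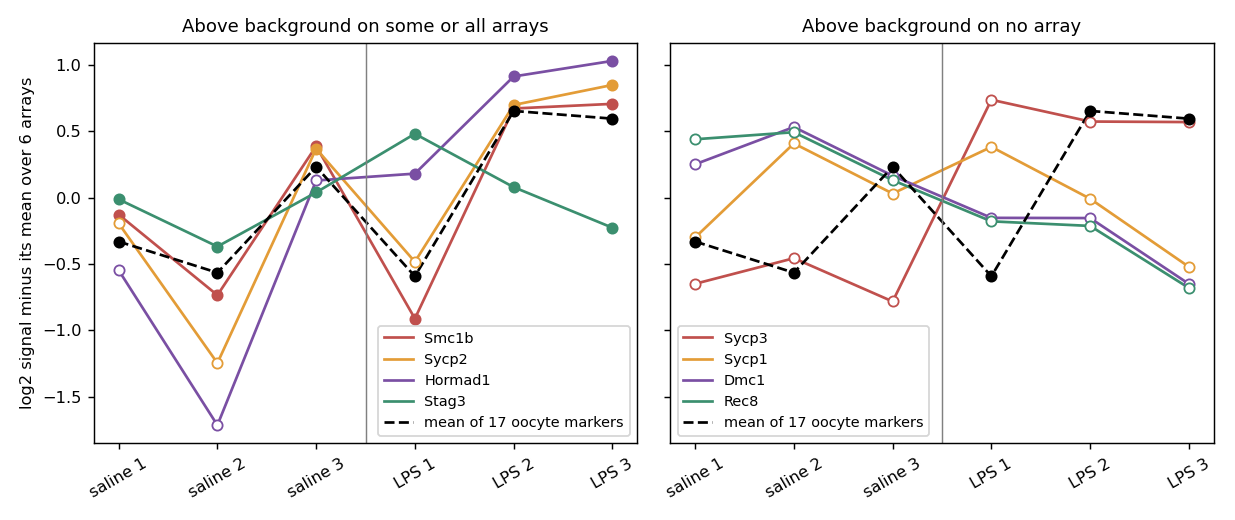
Log2 signal of each member minus its own mean over the 6 arrays, for the 4 members well above background on some or all arrays (left) and the 4 on none (right), with the mean of 17 oocyte markers dashed. Hollow points are not well above background. Smc1b and Sycp2 follow the dashed line, with dips on saline 2 and LPS 1, whereas Stag3 peaks on LPS 1 and the undetected Dmc1 and Rec8 run lower on the LPS arrays.

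The whole-array background to these values is as follows. Between 59.8% and 71.2% of probes were well above background on an array, and all 3 saline arrays (59.8% to 64.9%) were below the 3 LPS arrays (67.2% to 71.2%). Of the 19 oocyte and germ cell markers with a probe, 17 were well above background on all arrays. Saline 2 and saline 3 carried adrenal transcripts: the 9 adrenal cortex markers summed to 247.1 and 316.1 times the 75th percentile signal there and to 5.32 to 16.7 on the other 4 arrays, and the 7 adrenal medulla markers to 86.2 and 56.1 against 3.12 to 5.94. With both arrays left out the fitted differences of Hormad1 and Sycp3 were 1.25 and 1.28 (adjusted p = 0.851 and 0.715 in limma). That comparison sets saline 1 alone, where neither probe was well above background, against LPS, with the spread taken from the LPS arrays. Adrenal RNA's part in the member values was not tested.

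Of 11 other genes for the synaptonemal complex and axis, 6 had a probe, 1 met the 2-fold criterion and none passed the adjusted threshold. The median fitted difference was 0.67 over the 6, all of them positive, and 0.17 over the 3 well above background on all arrays. Of all 30367 probes 13602 were positive, and so were all 19 oocyte and germ cell markers with a probe. The 1 past the criterion was Syce1, which encodes a central element protein. It read -4.83, -5.13 and -4.62 in saline and -3.90, -3.70 and -3.91 in LPS, with no overlap. As for Hormad1, each LPS array and no saline array showed it well above background, where LPS arrays showed more of all probes so, as given above. With the same bound on the group means, its LPS mean was 1.52-fold higher (fitted difference 1.02, adjusted p = 0.271 in limma). Syce2 and Syce3, its partners in the central element, were well above background throughout and differed by 0.63 and 0.17, both with overlapping groups.

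Of 30 other recombination genes reported here, 18 had a probe. Tex15, Msh5 and Mei4, each well above background on all arrays, had the widest differences among such genes, at 0.40, -0.38 and 0.38, and the groups overlapped for all 3. TEX15 is needed for meiotic break repair, MSH5 stabilises crossover intermediates, and MEI4 takes part in making the DNA breaks.

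Of 8 genes for telomere attachment and chromosome movement, 5 had a probe, with a median fitted difference of 0.21. Over the 3 well above background on all arrays it was 0.16. Spdya, whose product activates CDK2 at telomeres, met the 2-fold criterion on fitted values. It read -5.60, -6.25 and -4.51 in saline and -4.65, -3.78 and -3.60 in LPS, and the groups overlapped. It was well above background on 2 LPS arrays and no saline array, and no fold is given. Majin, which anchors telomeres to the nuclear envelope, differed by 0.59 (95% interval -0.02 to 1.21), and Cdk2 by 0.16.

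Of 20 genes for meiotic entry and retinoic acid, the signal that induces Stra8, 15 had a probe, and none met the 2-fold criterion. The difference was positive for 12 of the 15, against 13602 of all 30367 probes. Among probes well above background on all arrays, it was positive for 9 of 11 in this list and for 9429 of all 17585. Aldh1a1 and Aldh1a2, which make retinoic acid, differed by 0.67 and 0.56, and Cyp26b1, which degrades it, by 0.43. Aldh1a1 read 1.06, 0.13 and 0.44 in saline and 1.15, 1.26 and 1.24 in LPS, without overlap (adjusted p = 0.286 in limma). Mitotic cohesin and its loaders, expressed in all dividing cells, had a probe for 11 of 16 genes, none past the 2-fold criterion, with a median of 0.08. Of these, Esco1, Mau2 and Rad21 had the widest differences among genes well above background on all arrays, at 0.37, -0.32 and 0.25.

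**Figure D4:**
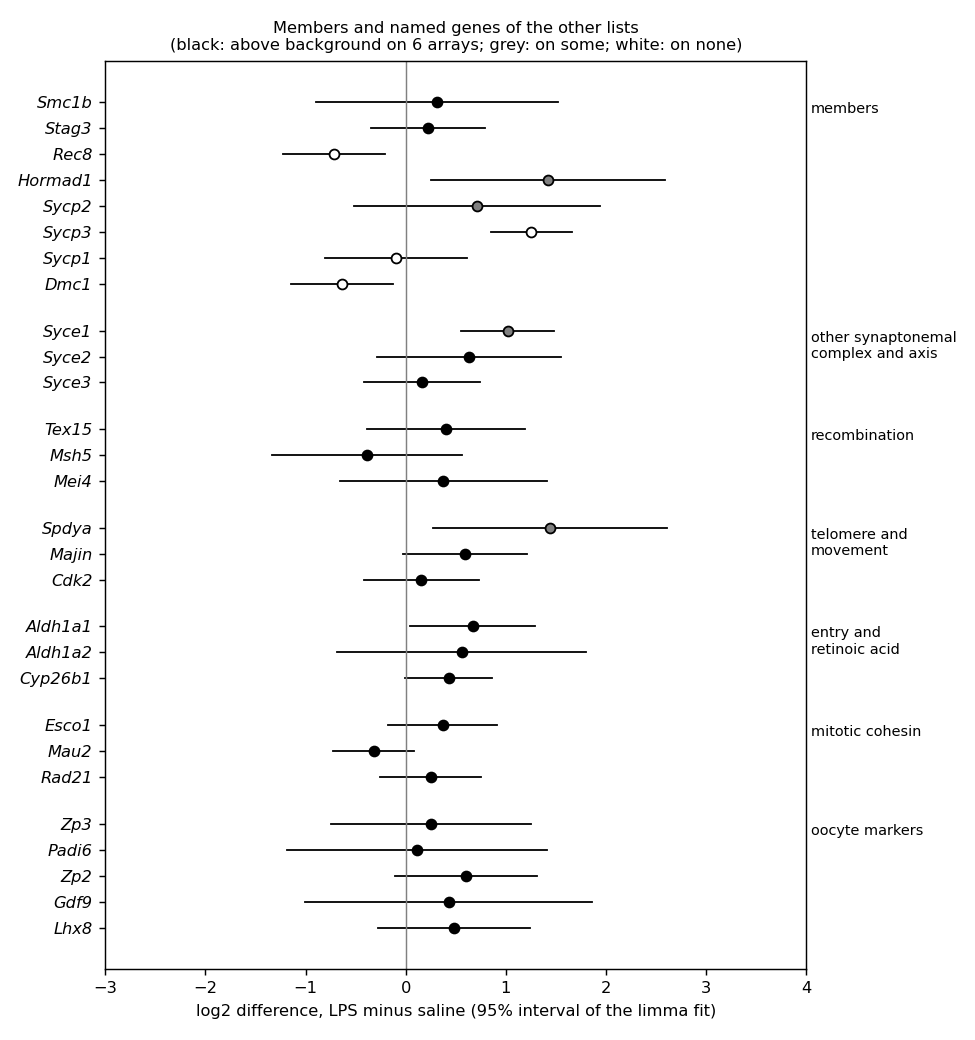
Fitted log2 difference (LPS minus saline, points) with its 95% limma interval (bars) for the 8 members and for the genes named from the other lists. Points are black for probes well above background on 6 arrays, grey on some and white on none. The intervals of Hormad1, Sycp3, Syce1, Spdya and Aldh1a1 lie above 0 and those of Rec8 and Dmc1 below it, all before adjustment for the number of probes.

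Across 20 alternative settings Hormad1 ran from 0.16 to 1.84 and Sycp3, in those that kept its dim probe, from -0.03 to 1.63. Differences of Rec8 and Dmc1 were negative in all that included them, whereas Sycp1 changed sign in several.

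**Figure D5:**
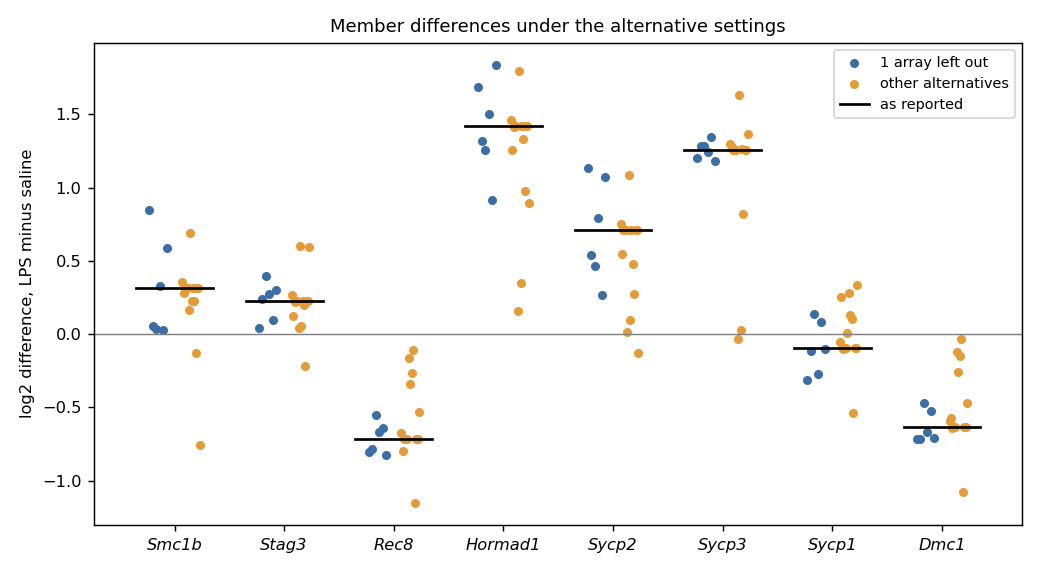
Fitted log2 difference (LPS minus saline) of each member as reported (black line), with 1 array left out (blue) and under the other alternatives (orange). Hormad1 stays above 0 throughout, Sycp3 reaches 0 only when the background is handled differently, and Smc1b, Stag3, Sycp2 and Sycp1 have points on both sides.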

How the data were processed

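Scanner intensity files of 6 single-colour arrays were used as deposited by the authors, read per the file headers with Agilent Feature Extraction 10.5.1.1, whose processed signal is background-subtracted. The authors' value table held the same signals within 0.497% and served as an alternative. The array normalization is not given in the sources used here. Control spots and outlier-marked spots were left out, log2 signals of a probe's spots were averaged, and each array's 75th percentile was subtracted. Of 30367 probes, 17998 were named through RefSeq accessions. Groups were compared with limma 3.58.1 in R 4.3.3 and Benjamini-Hochberg adjustment over all probes. The fit and the 2-fold criterion at an unadjusted p were tested on simulated arrays with independent probes, and the adjustment was not. The members were named by gene, and from each other list the genes past 2-fold at an unadjusted p under 0.05, filled up to 3 with the widest differences among genes well above background on all arrays, plus the 5 brightest oocyte markers. Members and lists were chosen with earlier results of these data known. Arrays with the same replicate number deviated together (correlations 0.298, 0.215 and 0.254 over probes), which rests on these values alone, since nothing in the labels ties the numbers. Precision is limited by having 3 arrays per group. Some recombination genes of the list are not reported here, for reasons unrelated to their values, so no tally over that list is given.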

Additional observations from a re-analysis of the deposited data

How the results depend on the processing

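Over all probes, 290 (0.955%) passed the adjusted threshold without saline 1, 186 (0.613%) relative to the oocyte markers and 5 with slide row as a term. No member passed it under any of the 20 alternatives. The count past the 2-fold criterion, 2 as reported, was 1 under quantile normalization, with slide row as a term, with the equal-variance test and among the 4 members well above background on at least 3 arrays. It was 0 relative to the oocyte markers, under normexp and without background correction, 1 to 3 with 1 array left out, and 3 without scaling, where Sycp2 joined. The count of members without overlap, 4 as reported against 23.4% of all probes, was 1 under quantile normalization (10.9%), relative to the oocyte markers (1.23%) and on at least 3 arrays (11.7%), 0 under normexp (12.3%) and without background correction (7.58%), and 3 without scaling (13.7%), where Stag3 was gained and Dmc1 and Rec8 were lost. It was 4 to 6 with 1 array left out, the 6 without LPS 1, where 43.4% of all probes did the same. The members' median of 0.27 was 0.64 without scaling (where the median of all probes was 0.34), -0.17 relative to the oocyte markers, 0.011 without background correction, 0.08 under normexp, 0.10 with slide row as a term, 0.51 on at least 3 arrays, and 0.09 to 0.44 with 1 array left out. The cause was not tested. With the replicate numbers as a block the counts stayed at 0, 2 and 4 and the median at 0.27, and the pairing changed no call.

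Single members changed sign as follows. Sycp1 was 0.28 without scaling, 0.10 under quantile normalization, 0.13 under normexp, 0.0053 without background correction, 0.34 with slide row as a term, 0.25 without saline 2 and 3 (an alternative chosen after seeing the data), and -0.31 to 0.14 with 1 array left out. Stag3 was -0.21 and Smc1b -0.13 relative to the oocyte markers. With slide row as a term Smc1b was -0.75 and Sycp2 -0.13. Sycp3 was -0.032 without background correction. Over all probes the 2-fold criterion gave 186 higher and 327 lower as reported, 1003 and 227 without scaling, 118 and 173 under quantile normalization, 15 and 754 relative to the oocyte markers, 2 and 280 under normexp, 0 and 211 without background correction, 1489 and 66 with slide row as a term, 103 and 186 on at least 3 arrays, and 100 and 48 with the equal-variance test. Each member had 1 probe, so no other choice of probe could be tried. Signals below background limited Sycp3, Sycp1, Dmc1 and Rec8 on all arrays and Hormad1 in saline.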
